A study of Mus musculus with 6 samples.

Results

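The chemokines and chemokine receptors of mouse kidney were taken as the rows of the expression table whose symbol begins with Ccl, Cxcl, Ccr, Cxcr or Ackr and a digit, with Cx3c, or with Xcl1 or Xcr1. This gave 59 of 17933 genes, 38 ligands and 21 receptors. They were compared between 3 kidney samples from mice in which calcium oxalate stones were induced and 3 from control mice, all male wild-type C57BL/6 animals, 6 to 8 weeks old and 24 to 26 g. The stone mice received glyoxylic acid, a precursor of oxalate, into the peritoneum at 120 mg/kg every day for 12 days, and the control mice received the same volume of saline. Whole kidney was used, so the cells that made each transcript were not separated, and in such bulk samples fewer cells of a type and less RNA per cell cannot be told apart.

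Chemokines are small secreted proteins that bind heparan sulfate on cell surfaces and guide leukocytes along a gradient. They act on receptors that couple to inhibitory G proteins, and they are named by the spacing of their first cysteines (CC, CXC, CX3C or C). Atypical receptors bind the same ligands without coupling to G proteins and take them out of the tissue. In kidney, tubule cells, endothelium, fibroblasts and resident macrophages can all release chemokines, and most of the receptors are carried by leukocytes.

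Expression was given as FPKM, fragments scaled to transcript length and library size, with column sums of 609705 to 613885 in stone samples and 711768 to 758514 in control samples. Across genes, Pearson's r of log2(FPKM + 1) was 0.979 to 0.991 for samples of one group and 0.931 to 0.950 for a stone with a control sample. A gene entered the limma test when its 6 values averaged 1 FPKM or more, and it was called at a Benjamini-Hochberg adjusted p below 0.05. The labelled tissue was borne out by summed markers of proximal tubule (13380 to 19020 FPKM in stone and 153800 to 185000 FPKM in control kidneys, mostly Kap, and 5015 to 6126 FPKM in stone and 8956 to 9985 FPKM in control kidneys without it) and of the loop, distal tubule and collecting duct (1633 to 2455 FPKM and 2250 to 2627 FPKM). Stone sample 3 and control sample 2 stood apart by transcripts of fat tissue. Summed over 8 adipocyte markers, picked after the data were seen, these were 0.35, 0.10 and 254.2 FPKM in stone samples 1 to 3 and 0.15, 312.3 and 0.98 FPKM in control samples 1 to 3. Markers of urothelium, the lining of the renal pelvis, summed to 1.24, 5.48 and 61.2 FPKM in stone samples 1 to 3 and 15.4, 3.49 and 8.43 FPKM in control samples 1 to 3.

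Stone kidneys had more RNA for chemokines that attract monocytes and neutrophils and for the receptors of monocytes and macrophages, while most receptors typical of lymphocytes were below the level for testing. Of the 59 genes, 30 reached the level for testing, of which 19 were called higher and 1 lower in stone kidneys, and 10 were not called. That is 63.3% called higher and 3.33% lower, where 43.5% of all 12319 tested genes were called higher, 13.9% lower and 57.4% in either direction. The groups did not overlap for 20 of the 30 (66.7%), near the 66.3% of all tested genes. Stone samples were the higher ones in 19 of these 20 and the lower ones in 1, against 49.8% and 16.5% of all tested genes. Of the 30, 17 (56.7%) were called higher at 1 log2 unit or more, against 7.32% of all tested genes, and their median log2 fold change was 1.24, where that over the whole table was 0.212.

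These shares are descriptions, because the filter favours genes that were high in stone kidneys. Of the 30 tested genes, 12 had a mean below 1 FPKM in control kidneys and were tested because their stone values were high. Among the 18 with a control mean of at least 1 FPKM, a split made after the data were seen, 8 were called higher (44.4%, against 41.9% of all such genes) and 6 were called higher at 1 log2 unit or more (33.3%, against 5.79%). After median-of-ratios scaling, which centred the table at a median log2 fold change of 0.00707, 17 members were called higher and 3 lower, with 23.9% of all tested genes higher and 24.9% lower. Without control sample 2 and stone sample 3, an alternative added after the data were seen, 17 members were called higher and 1 lower.

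**Figure D1:**
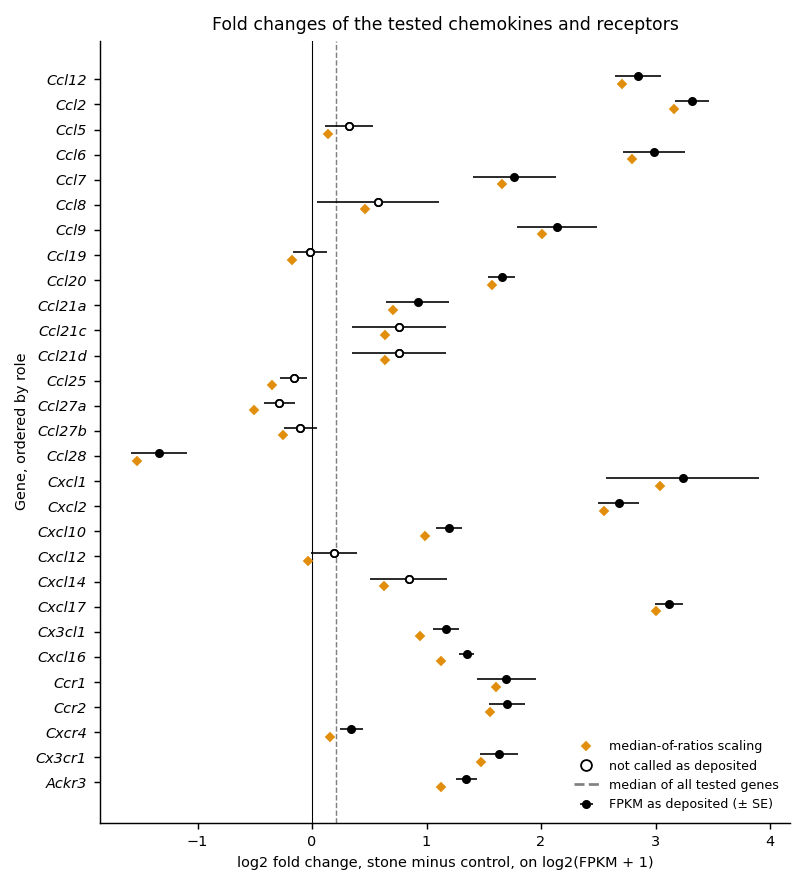
Log2 fold change (stone minus control, on log2(FPKM + 1)) of 29 tested chemokines and receptors, ordered by role. Black points with SE bars are values as deposited, open where not called, orange diamonds are values after median-of-ratios scaling, and the dashed line marks 0.212, the median over the whole table. Ccl2, Cxcl1 and Cxcl17 lie above 3 and Ccl28 is the called gene below 0.

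The CC chemokines that attract monocytes and macrophages were the largest block of higher ligands. Of 9 such genes 7 were tested and 5 called higher, namely Ccl2, Ccl6, Ccl7, Ccl9 and Ccl12 (71.4%, against 43.5% of all tested genes). The filter favours this count. Of the 7, 5 had a control mean below 1 FPKM and were tested because of their stone values, and of the other 2, Ccl6 was called higher and Ccl5 was not. Ccl2 encodes the monocyte chemoattractant MCP-1, the main ligand of CCR2. Ccl2 measured 12.81, 19.06 and 15.80 FPKM in stone samples 1 to 3 and 0.66, 0.82 and 0.55 FPKM in control samples 1 to 3. The lowest stone value was thus far above the highest control value, with means of 15.9 ± 3.13 against 0.677 ± 0.136 FPKM (SD, n = 3 each) and a log2 fold change of 3.32 with an SE of 0.145 (limma, adjusted p = 1.42e-05). Ccl12, which encodes the mouse CCR2 ligand MCP-5, measured 6.15, 10.20 and 10.60 FPKM in stone and 0.53, 0.27 and 0.28 FPKM in control samples. Its groups were as clearly apart, with a log2 fold change of 2.85 (SE 0.198; limma, adjusted p = 6.65e-05). Ccl7, another CCR2 ligand gene, measured 1.16, 4.74 and 4.08 FPKM in stone and 0.13, 0.42 and 0.00 FPKM in control samples. The stone values of Ccl7 did not overlap the control values but spread widely, and its log2 fold change was 1.76 (SE 0.363; limma, adjusted p = 0.00547).

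Ccl6 and Ccl9 are rodent CC chemokines made by myeloid cells and bound by CCR1. Ccl6 measured 17.98, 37.90 and 24.61 FPKM in stone and 1.57, 2.73 and 2.96 FPKM in control samples, an 11.1-fold ratio of means, with a log2 fold change of 2.99 (SE 0.273; limma, adjusted p = 0.000195). Ccl9 measured 2.57, 9.50 and 5.28 FPKM in stone and 0.31, 0.46 and 0.43 FPKM in control samples, with a log2 fold change of 2.14 (SE 0.349; limma, adjusted p = 0.00204). In both genes stone sample 1 was the lowest and stone sample 2 the highest of the stone kidneys.

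Ccl5 and Ccl8 were tested and not called. Ccl5, a ligand of CCR1 made by T cells among others, measured 5.46, 3.88 and 5.75 FPKM in stone and 3.49, 2.79 and 5.36 FPKM in control samples, and the groups overlapped (log2 fold change 0.33; limma, adjusted p = 0.216). Without control sample 3, its highest control, Ccl5 was called higher (log2 fold change 0.53; limma, adjusted p = 0.0389). Ccl8 measured 0.00, 2.25 and 3.80 FPKM in stone and 0.87, 0.91 and 0.31 FPKM in control samples. The stone samples lay on both sides of the controls (log2 fold change 0.58; limma, adjusted p = 0.378), and without stone sample 1, which was at 0, Ccl8 was called higher (log2 fold change 1.24; limma, adjusted p = 0.00604). Ccl3 and Ccl4, which encode the MIP-1 proteins, were too low to test. Ccl4 measured 0.88, 0.17 and 1.01 FPKM in stone and 0.00, 0.94 and 1.89 FPKM in control samples, and Ccl3 stayed at or below 0.79 FPKM in every sample.

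Several of these genes are neighbours. Ccl2, Ccl7, Ccl11, Ccl12 and Ccl8 lie within 81.2 kb on chromosome 11, from 82035577 to 82116799 (RefSeq, GRCm38.p6). In that cluster Ccl2, Ccl7 and Ccl12 were called higher, Ccl8 was not called and Ccl11 was not tested. The cluster of Ccl5, Ccl9, Ccl6, Ccl3 and Ccl4 spans 139.0 kb on chromosome 11 from 83525778 to 83664683, and there Ccl6 and Ccl9 were called higher, Ccl5 was not called, and Ccl3 and Ccl4 were not tested. An annotated transcript, Gm17268, overlaps Ccl2 on the other strand, and it is not a row of the table.

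**Figure D2:**
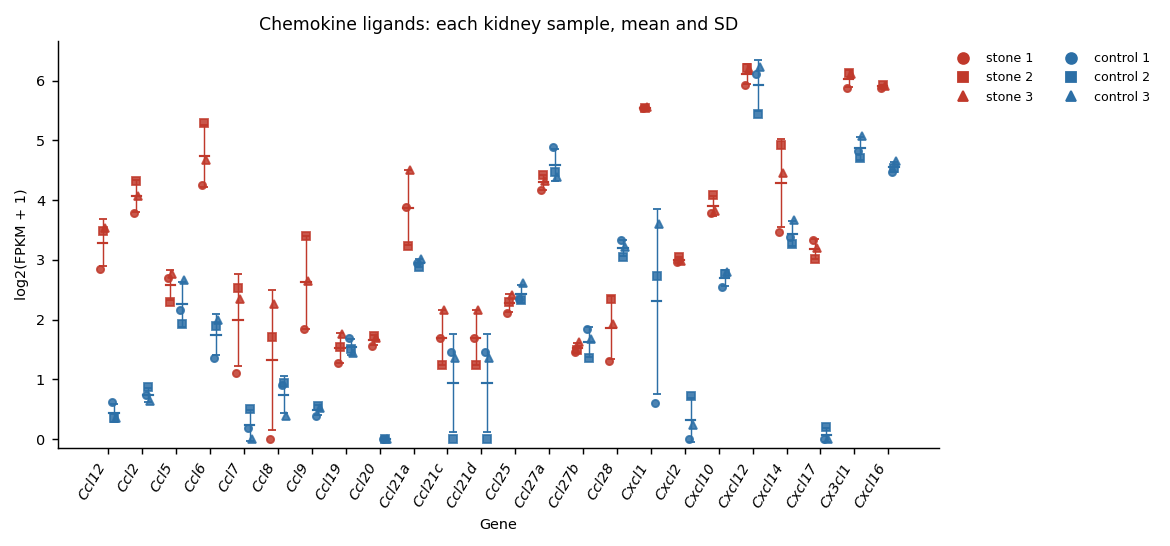
Levels of the 24 tested chemokine ligands as log2(FPKM + 1), with stone samples (red) left of control samples (blue) for each gene, a symbol per replicate, and bars for the mean and SD on the log scale (n = 3 each). The stone samples of Ccl2, Ccl12, Cxcl2 and Cxcl17 lie above all control samples, while Cxcl12, Ccl19 and Ccl25 overlap.

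Of the neutrophil-attracting CXC chemokines, Cxcl1 and Cxcl2 rose, with little spread among the stone kidneys. These ligands carry a Glu-Leu-Arg motif before the first cysteine and signal through CXCR2. Of 5 such genes these 2 were tested, and both were called higher, where 43.5% of all tested genes were. Cxcl2, with a control mean of 0.273 FPKM, was tested because of its stone values. Cxcl1, which encodes KC, measured 45.39, 45.46 and 46.10 FPKM in stone and 0.51, 5.60 and 11.17 FPKM in control samples. The stone samples were nearly equal and the control samples differed from each other by far more, with means of 45.6 ± 0.391 against 5.76 ± 5.33 FPKM (SD, n = 3 each) and a log2 fold change of 3.24 (SE 0.668; limma, adjusted p = 0.00551). Cxcl2, which encodes MIP-2, measured 6.78, 7.29 and 6.86 FPKM in stone and 0.00, 0.64 and 0.18 FPKM in control samples, with a log2 fold change of 2.68 (SE 0.181; limma, adjusted p = 5.99e-05). For Cxcl1 and Cxcl2 alike, control sample 1 was the lowest of all 6 samples.

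Cxcl5, which encodes LIX, was too low to be tested. It was listed at 0 in all 3 control samples and measured 0.65, 1.18 and 0.81 FPKM in stone samples. With no filter on low values it was called higher (limma, adjusted p = 0.00121, when 33.3% of 17587 genes were called higher). Cxcl3 was listed at 0 in control samples and measured 0.00, 0.27 and 0.44 FPKM in stone samples, without a call when no filter was used (limma, adjusted p = 0.111), and Cxcl15 was listed at 0 in every sample. Cxcl5, Cxcl3, Cxcl15, Cxcl1 and Cxcl2 lie in this order within 147.0 kb on chromosome 5, from 90759298 to 90905938 (RefSeq, GRCm38.p6). Cxcl2 and Cxcl3 share 5.84% and 4.24% of their 50-base stretches with another gene, in both cases mainly each other, so a small part of their fragments could be assigned to either.

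Several of the higher genes carry a match to the kappa B consensus, the sequence bound by NF-kappaB, just upstream of the transcription start, and the stretches around it are shown so that their letters can be compared. Cxcl3, which was not tested, is shown beside Cxcl1 and Cxcl2. Promoters were read from 250 bases before to 50 bases after each RefSeq start on GRCm38.p6, on both strands, with overlapping matches merged. Capitals mark the matching bases, and each stretch reads 5′ to 3′ on the strand of its gene.
Cxcl1: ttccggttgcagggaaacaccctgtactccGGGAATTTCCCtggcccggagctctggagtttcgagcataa
Cxcl2: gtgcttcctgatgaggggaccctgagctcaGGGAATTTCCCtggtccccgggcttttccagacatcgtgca
Cxcl3: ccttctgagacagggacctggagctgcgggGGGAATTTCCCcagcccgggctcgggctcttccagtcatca
Ccl20: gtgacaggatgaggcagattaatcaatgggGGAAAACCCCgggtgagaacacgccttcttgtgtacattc
Cxcl10: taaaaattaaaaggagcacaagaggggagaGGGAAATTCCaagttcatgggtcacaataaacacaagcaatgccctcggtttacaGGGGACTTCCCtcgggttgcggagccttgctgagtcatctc
Ccl9: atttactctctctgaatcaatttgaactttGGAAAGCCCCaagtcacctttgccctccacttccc
Ccr1: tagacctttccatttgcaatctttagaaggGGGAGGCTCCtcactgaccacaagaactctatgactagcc
The stretches lie at chr5:90891144-90891214 (plus strand), chr5:90903772-90903842 (plus), chr5:90785998-90786068 (plus), chr1:83116656-83116725 (plus), chr5:92348953-92349078 (minus), chr11:83578637-83578701 (minus) and chr9:123968727-123968796 (minus), in the order listed.

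Cxcl1, Cxcl2 and Cxcl3 hold the same 11 letters, GGGAATTTCCC, starting at position -71, -97 and -73 from their starts. The match in Ccl20 and in Ccl9 was on the opposite strand, and Cxcl10 holds matches in 2 separate places. Of the 14 genes called higher that had a promoter in the table, 6 (Ccl20, Ccl9, Ccr1, Cxcl1, Cxcl10 and Cxcl2) held a match, as did 11 of all 45 members with a promoter and 9.55% of all 27025 genes. Members without a called rise held it too, among them Cxcl3, Ccl1, Ccl27a, Ackr2 and Ccr6. Other motifs were less frequent in the 14: TGANTCA, an AP-1 type site, was in 2 (Ccl9 and Cxcl10; 8.97% of all genes), an interferon response type motif (TTTC on both sides of 2 free bases) was in 1 (Cxcl10; 3.99% of all genes), and TTCNNNGAA, a STAT type site, was in 0 (9.55% of all genes). Ccl2, Ccl7, Cxcl16 and Cxcl17 were among the genes called higher without a promoter entry.

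The chemokines induced by interferon differed in direction. Cxcl10 and Cxcl9 both encode ligands of CXCR3, the receptor of activated T cells and NK cells, and lie 27.6 kb end to end on chromosome 5, from 92321331 to 92348889. Cxcl10 measured 12.76, 16.00 and 13.04 FPKM in stone and 4.83, 5.77 and 5.93 FPKM in control samples, with a log2 fold change of 1.195 (SE 0.111; limma, adjusted p = 0.000202). All stone values of Cxcl10 were above all control values. Cxcl9 measured 0.18, 0.21 and 0.32 FPKM in stone and 0.94, 0.76 and 0.89 FPKM in control samples, too low for the main test, and its groups did not overlap in the other direction. With no filter on low values Cxcl9 was called lower, by -0.59 on the log2(FPKM + 1) scale (limma, adjusted p = 0.0012, when 10% of genes were called lower). Within single samples Cxcl10 was 70.9, 76.2 and 40.8 times Cxcl9 in stone and 5.14, 7.59 and 6.66 times in control kidneys. Cxcl10 lies within Art3 on the other strand, and no source used here says whether counting took the strand into account, so fragments of the pair may be mixed.

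**Figure D3:**
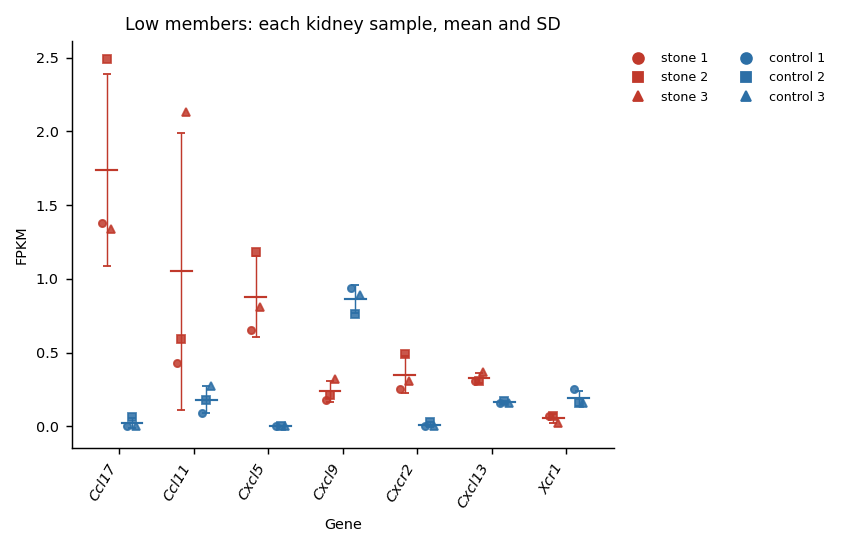
FPKM of 7 members below the level for testing, picked after their values were seen, with stone samples (red) left of control samples (blue), a symbol per replicate, and bars for mean and SD (n = 3 each). Cxcl9 and Xcr1 are lower in stone kidneys without overlap, and Ccl17, Cxcl5 and Cxcr2 are above every control sample.

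Both membrane-bound chemokines were higher and were among the most abundant members. CX3CL1 (fractalkine) and CXCL16 are made as transmembrane proteins and can be shed by the proteases ADAM10 and ADAM17. Cx3cl1 measured 57.41, 68.76 and 67.92 FPKM in stone and 27.14, 25.10 and 32.78 FPKM in control samples, with means of 64.7 ± 6.32 against 28.3 ± 3.98 FPKM (SD, n = 3 each) and a log2 fold change of 1.17 (SE 0.114; limma, adjusted p = 0.000256). Cxcl16 measured 57.79, 59.58 and 59.23 FPKM in stone and 21.26, 22.17 and 24.05 FPKM in control samples, with a log2 fold change of 1.35 (SE 0.0633; limma, adjusted p = 1.6e-05). Every stone sample was above every control sample in both genes. Ccl22, Cx3cl1 and Ccl17 lie within 66.4 kb on chromosome 8. Of the protease genes, Adam17 had a log2 fold change of 0.61 (limma, adjusted p = 0.000703) and Adam10 one of 0.50 (limma, adjusted p = 0.0028).

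Mucosal and homeostatic chemokines were divided. Cxcl17, a chemokine of mucosal epithelia, measured 9.11, 7.08 and 8.17 FPKM in stone and 0.00, 0.15 and 0.00 FPKM in control samples, with a log2 fold change of 3.12 (SE 0.124; limma, adjusted p = 1.32e-05). Ccl20, the ligand of CCR6, was listed at 0 in all 3 control samples and measured 1.94, 2.30 and 2.23 FPKM in stone samples, with a log2 fold change of 1.66 (SE 0.120; limma, adjusted p = 7.81e-05). Both genes were at or near 0 in control kidneys and above 1 FPKM in every stone kidney. Ccl28, an epithelial chemokine that binds CCR10 and CCR3, was the called member that fell. Ccl28 measured 1.47, 4.09 and 2.82 FPKM in stone and 9.06, 7.29 and 8.29 FPKM in control samples, with means of 2.79 ± 1.31 against 8.21 ± 0.887 FPKM (SD, n = 3 each) and a log2 fold change of -1.34 (SE 0.244; limma, adjusted p = 0.00333). The other CCR10 ligand genes, Ccl27a and Ccl27b, were not called (log2 fold changes of -0.29 and -0.10; limma, adjusted p = 0.114 and 0.569). Ccl27a measured 16.94, 20.29 and 18.90 FPKM in stone and 28.66, 21.26 and 19.86 FPKM in control samples, and Ccl27b measured 1.75, 1.80 and 2.07 FPKM in stone and 2.58, 1.55 and 2.20 FPKM in control samples. After median-of-ratios scaling Ccl27a was called lower at -0.51 (limma, adjusted p = 0.0181).

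Cxcl12, which encodes SDF-1, was the most abundant chemokine by mean FPKM in both groups and did not pass. It measured 59.65, 73.07 and 72.61 FPKM in stone and 67.92, 42.18 and 73.67 FPKM in control samples, so the groups overlapped (log2 fold change 0.19; limma, adjusted p = 0.442), and the lowest value belonged to control sample 2. Without that sample the log2 fold change of Cxcl12 was -0.05 (limma, adjusted p = 0.702). Cxcl14, an epithelial and stromal chemokine, measured 10.10, 29.29 and 20.97 FPKM in stone and 9.37, 8.63 and 11.76 FPKM in control samples. Stone samples 2 and 3 were high and stone sample 1 lay among the controls (log2 fold change 0.85; limma, adjusted p = 0.0641), and without stone sample 1 Cxcl14 was called higher at 1.251 (limma, adjusted p = 0.00177). Ccl25, a ligand of CCR9, measured 3.32, 3.88 and 4.32 FPKM in stone and 4.10, 4.02 and 5.09 FPKM in control samples and was not called (log2 fold change -0.16; limma, adjusted p = 0.281). After median-of-ratios scaling Ccl25 was called lower at -0.35 (limma, adjusted p = 0.0278). Cxcl13, which attracts B cells, stayed at or below 0.37 FPKM in every sample and was not tested. Its stone values (0.31, 0.31 and 0.37 FPKM) were above its control values (0.16, 0.17 and 0.16 FPKM). With no filter on low values Cxcl13 was called higher (limma, adjusted p = 0.00733), where 33.3% of all genes were.

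The ligands of CCR7, which direct dendritic cells and T cells into lymphoid tissue, could be read only in part. Ccl21a measured 13.81, 8.43 and 21.60 FPKM in stone and 6.74, 6.40 and 7.11 FPKM in control samples and was called higher at a log2 fold change of 0.92 (SE 0.279; limma, adjusted p = 0.0253). The highest value of Ccl21a was in stone sample 3, and without the libraries with adipocyte transcripts the change was 0.58 (limma, adjusted p = 0.0872). Median-of-ratios scaling gave 0.71 (limma, adjusted p = 0.0631). Without stone sample 3 alone the value was 0.61 (limma, adjusted p = 0.0323), and the call was lost without stone sample 1 or without control sample 1, 2 or 3 (limma, adjusted p = 0.0542, 0.0645, 0.0759 and 0.0559). Lymphatic endothelium makes CCL21, but no list of lymphatic markers was read. General endothelial markers summed to 225.2, 275.8 and 332.4 FPKM in stone and 133.1, 119.5 and 198.8 FPKM in control samples. Of these 11 markers, 7 were called higher, where 43.5% of all tested genes were. The list does not measure lymphatic endothelium, and its part in the Ccl21a result was not tested. Ccl19 measured 1.42, 1.90 and 2.39 FPKM in stone and 2.22, 1.85 and 1.70 FPKM in control samples and was not called (log2 fold change -0.02; limma, adjusted p = 0.922).

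The values of the Ccl21 and Ccl27 genes are uncertain, since reads of shared sequence could be assigned to more than one gene. Ccl21c and Ccl21d had the same value in each of the 6 samples, 2.24, 1.37 and 3.45 FPKM in stone and 1.75, 0.00 and 1.56 FPKM in control samples (log2 fold change 0.76; limma, adjusted p = 0.151). Ccl21b measured 3.17 FPKM in control sample 2, the control sample in which Ccl21c and Ccl21d were listed at 0, and was listed at 0 in the other 5 samples. Shared sequence was not measured here for Ccl21c and Ccl21d. Of the 50-base stretches of the transcripts of other members (GENCODE M21), 100% in Ccl21b, 71.6% in Ccl21a, 98.1% in Ccl27b, 45.0% in Ccl27a and 52.0% in Ccl19 also occur in another gene. Without the 8 members that share at least 10% or are Ccl21c and Ccl21d, 18 members were called higher and 1 lower.

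The CC chemokines of eosinophil and Th2 responses were all below the level for testing. Ccl17, a ligand of CCR4, measured 1.38, 2.49 and 1.34 FPKM in stone and 0.00, 0.06 and 0.00 FPKM in control samples, and with no filter on low values it was called higher (limma, adjusted p = 0.00127). Ccl11, the eosinophil attractant eotaxin, measured 0.43, 0.59 and 2.13 FPKM in stone and 0.09, 0.18 and 0.27 FPKM in control samples, which did not overlap, and was not called with no filter (limma, adjusted p = 0.0954). Stone sample 3, the highest for Ccl11, was also the stone sample with adipocyte transcripts. Ccl22, the other CCR4 ligand gene, reached at most 0.58 FPKM, Ccl24 at most 0.53 FPKM and Ccl1 at most 0.30 FPKM in any sample, and stone and control values overlapped in all 3 genes. Xcl1, the C chemokine of NK and T cells, measured 0.00, 0.55 and 0.00 FPKM in stone and 0.57, 0.00 and 0.89 FPKM in control samples.

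Receptors were mostly lower in level than ligands, and Ccr1, Ccr2, Cx3cr1, Cxcr4 and Ackr3 were called higher. Ccr1, Ccr2 and Cx3cr1 are receptors of monocytes and macrophages, and these 3 were tested because of their stone values. Ccr2, which brings inflammatory monocytes out of the marrow, measured 3.84, 6.11 and 4.80 FPKM in stone and 0.87, 0.62 and 0.91 FPKM in control samples, with a log2 fold change of 1.70 (SE 0.158; limma, adjusted p = 0.000203). Cx3cr1, the fractalkine receptor of kidney macrophages and patrolling monocytes, measured 4.46, 6.70 and 4.51 FPKM in stone and 0.81, 0.90 and 1.26 FPKM in control samples, with a log2 fold change of 1.63 (SE 0.165; limma, adjusted p = 0.000284). One annotated transcript of Cx3cr1 runs across neighbouring genes, so some fragments may be theirs. The stone values of both receptors were several times the control values and did not overlap them. Ccr1, the receptor of CCL3, CCL5, CCL6 and CCL9, measured 1.40, 4.13 and 2.36 FPKM in stone and 0.06, 0.03 and 0.11 FPKM in control samples, with a log2 fold change of 1.70 (SE 0.261; limma, adjusted p = 0.00163). In each of these genes stone sample 2 was the highest of the stone kidneys. Set beside their main ligands, Ccl2 was 3.34, 3.12 and 3.29 times Ccr2 in stone and 0.759, 1.32 and 0.604 times in control kidneys, and Cx3cl1 was 12.9, 10.3 and 15.1 times Cx3cr1 in stone and 33.5, 27.9 and 26.0 times in control kidneys. On FPKM, the ligand thus had the larger ratio in stone kidneys in the first pair and the smaller one in the other.

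Xcr1, the receptor of cross-presenting dendritic cells, was the other way round, at 0.07, 0.07 and 0.02 FPKM in stone and 0.25, 0.16 and 0.16 FPKM in control samples, and with no filter on low values it was called lower (limma, adjusted p = 0.0198). A list of dendritic cell markers held Xcr1 and Ccr7. It summed to 12.1, 16.0 and 14.4 FPKM in stone and 9.04, 9.68 and 12.7 FPKM in control samples. Of 3 tested, 2 were called higher (Irf8 and Zbtb46), where 43.5% of all tested genes were. After median-of-ratios scaling 0 were, against 23.9%. Of those not tested, Clec9a (mean 0.487 FPKM in stone, 0.633 FPKM in control) and Itgae (0.187 and 0.3) were lower on average. Flt3 (0.29 and 0.147) and Clec10a (0.973 and 0.237) were higher.

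**Figure D4:**
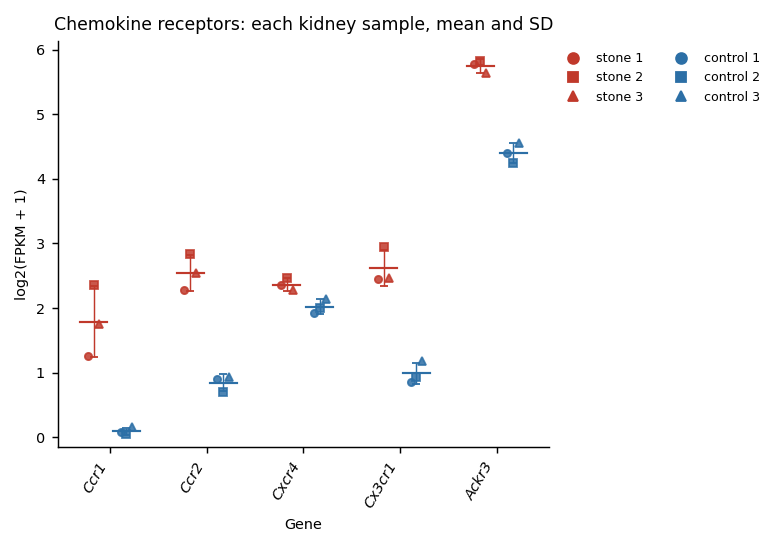
Levels of 5 tested chemokine receptors as log2(FPKM + 1), with stone samples (red) left of control samples (blue), a symbol per replicate, and bars for the mean and SD on the log scale (n = 3 each). Stone and control samples do not overlap for any of the 5, where 66.3% of all tested genes did not overlap. Ccr1, Ccr2 and Cx3cr1 were tested because of their stone values. The distance is smallest for Cxcr4, and Ackr3 is the most abundant receptor in both groups.

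The receptors of CXCL12 differed in level and in size of change. Ackr3 encodes an atypical receptor that removes CXCL12 and is made by vessels and epithelia. Ackr3 measured 53.98, 56.04 and 48.79 FPKM in stone and 20.05, 17.97 and 22.66 FPKM in control samples, with means of 52.9 ± 3.74 against 20.2 ± 2.35 FPKM (SD, n = 3 each) and a log2 fold change of 1.35 (SE 0.0957; limma, adjusted p = 7.12e-05). Cxcr4, which encodes the signalling receptor, measured 4.11, 4.53 and 3.83 FPKM in stone and 2.79, 2.99 and 3.43 FPKM in control samples. Its groups lay close together, and the log2 fold change was 0.34 (SE 0.1; limma, adjusted p = 0.0222). Median-of-ratios scaling gave 0.16 (limma, adjusted p = 0.212). The call for Cxcr4 was also lost without stone sample 2 and without control sample 1 or 2 (limma, adjusted p = 0.0847, 0.0782 and 0.0578). Within single samples Ackr3 was 13.1, 12.4 and 12.7 times Cxcr4 in stone and 7.19, 6.01 and 6.61 times in control kidneys. Cxcl12 was 1.11, 1.30 and 1.49 times Ackr3 in stone and 3.39, 2.35 and 3.25 times in control kidneys. Both ratios, taken on FPKM, separated the groups. The other atypical receptors Ackr1, Ackr2 and Ackr4 stayed at or below 0.25 FPKM in every sample. Ackr2, at 0.22, 0.20 and 0.16 FPKM in stone and 0.11, 0.12 and 0.09 FPKM in control samples, was called higher with no filter on low values (limma, adjusted p = 0.0441). Without that filter 33.3% of all genes were called higher.

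The summed FPKM of all 38 ligands was 354.5, 447.2 and 433.5 in stone and 197.9, 167.4 and 221.5 in control samples, and that of all 21 receptors was 71.1, 83.2 and 68.0 in stone and 26.2, 24.2 and 30.8 in control samples, most of it Ackr3.

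The receptors of most of the higher CXC and mucosal ligands were close to 0. Cxcr2, the neutrophil receptor of the CXCL1, CXCL2 and CXCL5 proteins, measured 0.25, 0.49 and 0.31 FPKM in stone and 0.00, 0.03 and 0.00 FPKM in control samples, and with no filter on low values it was called higher (limma, adjusted p = 0.0045). Ccr6, the receptor of CCL20, was listed at 0 in all 3 stone samples and at 0.00, 0.03 and 0.06 FPKM in control samples. Ccr4, the receptor of CCL17, stayed at or below 0.06 FPKM in every sample. Cxcr3, the receptor of CXCL9 and CXCL10, measured 0.10, 0.46 and 0.25 FPKM in stone and 0.42, 0.28 and 0.27 FPKM in control samples, which overlapped. Cxcr6, the receptor of CXCL16, measured 0.00, 0.13 and 0.12 FPKM in stone and 0.13, 0.09 and 0.36 FPKM in control samples, which overlapped as well. So of these 5 receptors Cxcr2 had stone values above every control value, at under 0.5 FPKM. Ccr7, Ccr9, Ccr10, Cxcr5 and Ccr1l1 stayed at or below 0.47 FPKM and Ccr8 was listed at 0 throughout. Ccr10 lies within Cntnap1 on the other strand, so its fragments may be mixed with those of Cntnap1. Markers of T and NK cells, which carry several of these receptors, summed to 2.94, 3.35 and 2.72 FPKM over 14 genes in stone and 4.40, 4.02 and 5.29 FPKM in control samples, and 0 of them reached the level for testing.

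The stone kidneys were further apart in several monocyte-related members than in Cxcl1 and Cxcl2. Of all 19 members called higher, stone sample 1 was the lowest in 15 and stone sample 2 the highest in 15, Cxcl2 and Cxcl16 among them. Of the 11 CC ligands and CC or CX3C receptors called higher, which include Ccl20 and Ccl21a, the counts were 10 and 9. Relative to the mean of the stone samples, the values in stone samples 1 to 3 were 0.444, 1.64 and 0.913 for Ccl9, 0.532, 1.57 and 0.897 for Ccr1, and 0.67, 1.41 and 0.917 for Ccl6. For Cxcl1 the same ratios were 0.994, 0.996 and 1.01, and for Cxcl16 they were 0.982, 1.01 and 1.01. The summed level of 18 macrophage and monocyte markers had ratios of 0.636, 1.41 and 0.954 in the same samples, the order of Ccl6, and 11 neutrophil markers had ratios of 1.27, 0.874 and 0.852.

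**Figure D5:**
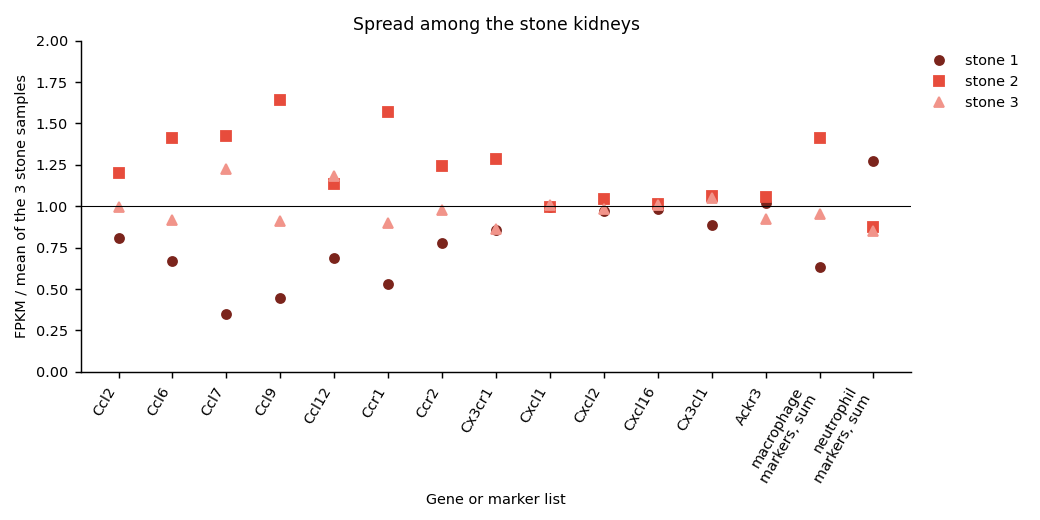
FPKM of 13 called chemokine genes, and the summed FPKM of 2 marker lists, in each stone sample divided by the mean of the 3 stone samples (line at 1). Stone sample 1 lies lowest and stone sample 2 highest for Ccl2, Ccl6, Ccl7, Ccl9, Ccr1, Ccr2 and Cx3cr1 and for the macrophage marker sum, while the 3 samples nearly coincide for Cxcl1, Cxcl2 and Cxcl16.

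Markers of myeloid cells also differed between stone and control kidneys. Macrophage and monocyte markers summed to 329.7, 731.2 and 494.8 FPKM in stone and 123.8, 115.9 and 126.1 FPKM in control samples, and of 17 tested 15 were called higher and 1 lower, Ly6c2, at a log2 fold change of -0.74 (limma, adjusted p = 0.00647). Csf1r, the macrophage growth factor receptor gene, was not called, at 20.3 ± 7.15 FPKM in stone and 20.2 ± 2.46 FPKM in control samples (SD, n = 3 each; limma, adjusted p = 0.888). Neutrophil markers summed to 30.5, 20.9 and 20.4 FPKM in stone and 2.28, 5.51 and 3.82 FPKM in control samples. Of 11 listed, 3 were tested and all 3 were called higher (S100a8, S100a9 and Csf3r). Csf3r, with a control mean of 0.473 FPKM, was tested because of its stone values. So were the macrophage markers Adgre1, Cd86, Fcgr1, Itgam, Mrc1 and Ms4a7, so the filter favours both counts. The neutrophil sum rests on S100a8 and S100a9, while the defining gene Ly6g was listed at 0 in all samples but stone sample 3, at 0.10 FPKM. None of the genes in either list was at 0 in every sample. The part of cell numbers in the chemokine results was not tested. Over all tested genes 43.5% were called higher, 13.9% lower and 57.4% in either direction. After median-of-ratios scaling 23.9% were higher and 24.9% lower. Of the other lists, 9 of 10 fibroblast and pericyte, 4 of 5 podocyte and 10 of 11 tubule injury markers were called higher. Lum, Sox9 and Cd44, called higher, and Postn, not called, had control means below 1 FPKM. They too were tested because of their stone values. Lower were 1 injury marker, 5 of 5 blood cell markers and 8 of 11 proximal tubule markers. Of 10 markers of the loop, distal tubule and collecting duct 2 were higher and 3 lower, beside the 43.5% and 13.9% of all tested genes. With that scaling 3 podocyte markers were higher, 9 proximal tubule markers lower, and in the last list 1 higher and 4 lower. The other marker counts given here stayed equal. For B and plasma cells 1 marker was tested and 0 were called, and 0 of 7 tested adipocyte and 0 of 6 tested urothelium markers were called.

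Genes that carry leukocytes across vessels were mostly higher. Of 11 tested genes of trafficking and adhesion, 9 were called higher and 0 lower, with a median log2 fold change of 0.868. Itgam, Itgax and Cd44, all called higher, had control means of 0.223, 0.677 and 0.387 FPKM. They were tested because of their stone values, so the filter favours this count. The whole table had a median of 0.212, with 43.5% of genes called higher and 13.9% lower. Median-of-ratios scaling left 8 higher and 1 lower, where 23.9% of the table was called higher and 24.9% lower. Icam1, an endothelial and epithelial ligand of leukocyte integrins, measured 34.82, 33.31 and 34.82 FPKM in stone and 8.83, 7.54 and 9.33 FPKM in control samples (limma, adjusted p = 1.42e-05). Vcam1, the ligand of integrin alpha 4 beta 1, measured 22.64, 28.15 and 22.93 FPKM in stone and 1.58, 1.40 and 2.56 FPKM in control samples (limma, adjusted p = 2.02e-05). The stone values of both were far above the controls. Cd44, a hyaluronan receptor, had a log2 fold change of 2.32 (limma, adjusted p = 0.000265). Vcam1 and Cd44 are also in the list of tubule injury markers, Itgam in the macrophage list and Pecam1 in the endothelial list. The results of these lists are therefore not separate. Sele and Selp, the endothelial selectins, stayed at or below 0.67 and 0.50 FPKM and were not tested.

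Downstream of the receptors, 17 of 22 tested signalling genes were called higher and 0 lower, with a median log2 fold change of 0.586, beside 43.5% called higher, 13.9% called lower and a median of 0.212 over the table. Under median-of-ratios scaling 15 were called higher and 0 lower, beside 23.9% and 24.9% of the table. Rgs16, Elmo1, Pik3cd and Prex1, called higher as deposited, and Rgs1, not called, had control means below 1 FPKM. They were tested because of their stone values, so the filter favours both counts. Arrb2, which encodes the beta-arrestin 2 that binds activated receptors, measured 10.43, 13.88 and 12.44 FPKM in stone and 5.45, 4.64 and 4.70 FPKM in control samples (log2 fold change 1.15; limma, adjusted p = 0.000258). The inhibitory G protein gene Gnai2 and the G protein beta subunit gene Gnb1 had log2 fold changes of 0.78 and 0.69 (limma, adjusted p = 0.000296 and 0.000328). These changes were smaller than those of the leading ligands.

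Genes that process or hold chemokines on the cell surface followed, with 17 of 18 tested called higher and 1 lower, and a median log2 fold change of 0.756, beside the same 43.5%, 13.9% and 0.212 over the table. With median-of-ratios scaling 11 were higher and 1 lower, beside 23.9% and 24.9%. Hs3st1, Sulf1 and Mmp2, all called higher, had control means of 0.48, 0.537 and 0.897 FPKM. They were tested because of their stone values, so the filter favours both counts. The membrane metalloproteinase gene Mmp14, the syndecan gene Sdc1 and the heparan sulfate sulfotransferase gene Hs3st1 had log2 fold changes of 1.87, 1.62 and 1.46 (limma, adjusted p = 0.000403, 0.000535 and 0.000586). Sdc2, another heparan sulfate proteoglycan of the syndecan family, measured 35.54, 36.21 and 34.75 FPKM in stone and 46.53, 46.21 and 50.60 FPKM in control samples and was the gene of this list called lower (log2 fold change -0.42; limma, adjusted p = 0.0012). Of 15 tested chemokine-like genes outside the symbol pattern, 9 were called higher and 1 lower, beside 43.5% and 13.9% over the table. Their median log2 fold change was 1.04, beside 0.212. The counts were equal under median-of-ratios scaling, beside 23.9% and 24.9%. C5ar1, S1pr2, Cmklr1 and Ch25h, all called higher, had control means below 1 FPKM. They were tested because of their stone values, so the filter favours these counts. Cmtm6, a membrane protein gene of the CKLF-like family, was the lower one, at 42.64, 42.87 and 41.51 FPKM in stone and 97.51, 89.13 and 82.60 FPKM in control samples (log2 fold change -1.06; limma, adjusted p = 5.93e-05). Cd74, whose product is also a receptor of the cytokine MIF, and Cmtm3 had log2 fold changes of 1.16 and 1.59 (limma, adjusted p = 0.000178 and 0.000301). Mif itself was not called (log2 fold change 0.14; limma, adjusted p = 0.285). Pf4, which encodes the CXC chemokine CXCL4 and was picked after its values were seen, measured 4.51, 7.69 and 7.43 FPKM in stone and 1.55, 1.38 and 1.39 FPKM in control samples (limma, adjusted p = 0.000413).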

How the data were processed

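Total RNA of whole kidney was sequenced from strand-marked cDNA libraries made as DNA nanoballs, per the labels' protocols. Reads were aligned with HISAT2 2.0.4 to GRCm38.p6, per the submitters' processing notes, and no source used here names the quantifying program or the annotation. The authors deposited FPKM values with 2 decimals, 1 column per sample, and 0 columns belong to other samples. FPKM keep no counts, so count models were not applied, absolute depth is unknown and no counting interval can be given. A relative check used 53 genes listed at 0 in some samples, with other values of at least 0.15 FPKM and within a 1.25-fold range. These were taken to be at 1 fragment, which was not shown. Their mean deviations per sample were -0.0343 to 0.053 log2 units. Because genes with near-equal values were chosen, small deviations were set in advance and say nothing on equal depth.

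From these values, log2(FPKM + 1) was compared with limma 3.58.1 in R 4.3.3 (eBayes with a trend, two-sided) over 12319 genes whose 6 values averaged 1 FPKM or more. Fold changes on this scale understate those of low genes. All p-values were adjusted over every gene tested. No samples had identical values (0 pairs). The labels do not say that each came from a separate mouse, so the p-values reflect the spread among these samples, which may be technical. The script was tested on simulated data. Promoters and coordinates are from RefSeq (45 and 59 members matched), and shared sequence from GENCODE M21 (57 matched).

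The members and gene lists were chosen with earlier results of these data known, and the adipocyte and urothelium lists after the data were seen. Every member is named or counted by role, except that 1 gene is in the counts and its own values are not reported here. From each other pathway list the 3 called genes with the smallest p and the leading called gene against the majority are named. Adam10, Adam17, Mif, Pf4, Sele, Selp and the marker genes were named in addition, after their values were seen. Alternatives were other pseudocounts, filters and scalings, no trend, array weights, a replicate block and leaving out samples.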

Additional observations from a re-analysis of the deposited data

How the results depend on the processing

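Of the 20 called members, 18 kept their direction and their call under all 18 alternatives, and the exceptions were Ccl21a and Cxcr4. Among members, 3 were called lower with no filter (2 ligands, 1 receptor), 2 with a mean of at least 0.3 FPKM (2 ligands), 3 after median-of-ratios scaling (3 ligands), 5 after quantile normalization (5 ligands) and 2 with array weights (2 ligands), where 1 ligand and 0 receptors were called lower as deposited. Over all tested genes 2948 were called higher and 3064 lower after median-of-ratios scaling, 2744 and 3138 after quantile normalization, and 8440 and 797 with equal FPKM sums, against 5356 and 1711 as deposited. Leaving out 1 sample at a time gave 17 to 20 members higher and 1 lower, 12 to 14 ligands and 5 to 6 receptors higher, and 4265 to 5242 genes higher and 1360 to 1697 lower over all genes. The log2 fold change changed sign, without a call, for Cxcl12 at -0.039 after median-of-ratios scaling and -0.098 without both libraries with adipocyte transcripts, for Ccl5 at -0.035 and Cxcr4 at -0.034 after quantile normalization, and for Ccl19 at 0.16, Ccl25 at 0.066 and Ccl27b at 0.083 with equal FPKM sums. Leaving out 1 sample gave ranges that cross 0 for Cxcl12 (-0.053 to 0.342), Ccl19 (-0.138 to 0.105) and Ccl27b (-0.238 to 0.0067). The cause of these differences was not tested. The deviations of samples that share a replicate number had correlations of 0.0075, -0.22 and -0.04. The labels do not say whether the numbers pair the samples, and these 3 values from so few samples cannot decide it. With the replicate block 21 members were called higher, 16 ligands and 5 receptors, and 1 was called lower. Over all tested genes 4861 were called higher and 1517 lower with that block.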
